A study of Homo sapiens with 18 samples.

Results

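DNA-RNA hybrid peaks were followed over 10 genes that build the hemidesmosome, the basement membrane contact, the cell-cell junctions and the keratin filaments of epithelia: ITGB4, LAMA5, LAMB3, PLEC, CDH1, EPCAM, JUP, KRT8, KRT18 and KRT19. They are 10 of the 20162 protein-coding genes of the annotation used, and the interval read for each gene was its body plus 5000 bp on each side in hg19 (GRCh37). ITGB4 was chosen by the loss of its untreated peaks after camptothecin (CPT), so its change with CPT is given as a description without a test. The other 9 genes were listed for their function. The DRIP lists held 374 of their 288223 peaks in these intervals, and the RNase H lists 225 of 142635.

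HCT116 is a human epithelial colorectal carcinoma line, and all libraries came from these cells, either untreated (NT) or treated with 10 µM CPT for 5 min or 60 min. Per the study's methods, cells were harvested, washed and pelleted between the end of treatment and lysis. The 5 min and 60 min are thus times of exposure, and lysis came later. Each of the 3 treatments had 2 biological replicates, and every replicate had a DRIP, an RNase H and an input library, where RNase H stands for DRIP after the extracted DNA was treated with that enzyme. A replicate pooled parallel immunoprecipitations before sonication. The 12 peak lists of the DRIP and RNase H libraries were read, and the 6 inputs served as controls of the peak calling and were not analysed here. Peak lists hold no expression values, so the epithelial label could not be checked against marker transcripts.

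A DNA-RNA hybrid forms when a transcript pairs with its template strand, and with the displaced DNA strand it makes an R loop. The S9.6 antibody binds such hybrids, and RNase H degrades their RNA, so that a peak which remains in an RNase H list was not removed by the enzyme. CPT traps topoisomerase I on DNA, the enzyme that relaxes the supercoils ahead of and behind a moving RNA polymerase. In DRIP the genome is cut with a cocktail of restriction enzymes before immunoprecipitation, so a hybrid is recovered on the whole fragment that carries it.

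Integrin β4 (ITGB4) is the transmembrane core of the hemidesmosome, which plectin (PLEC) ties to keratin filaments inside the cell and which binds laminin chains such as those of LAMB3 outside it. LAMA5 encodes a laminin α chain of many epithelial basement membranes. E-cadherin (CDH1) joins neighbouring cells, plakoglobin (JUP) links cadherins to the cytoskeleton, and EPCAM is a surface glycoprotein of simple epithelia. Keratins 8, 18 and 19 form the intermediate filaments of these epithelia, KRT8 as the type II partner of the type I keratins KRT18 and KRT19.

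The measure used most is the covered share, the percentage of the bases of a gene's interval that lie under a peak of a list. The height of a peak was read only as its percentile, the share of peaks of the same list at or below its fold enrichment over input, because lists were not scaled to each other. A group of 2 libraries was called lower or higher than another where their covered shares did not overlap. A two-sided exact permutation test of 2 libraries against 2 cannot go below p = 0.333, so no difference here could pass 0.05, and such a call describes the order of 4 libraries. A covered share cannot tell fewer cells with a hybrid from fewer hybrids per cell.

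The lists differed in length, and those of replicate 2 were the longer ones in every treatment. In NT the DRIP lists of replicates 1 and 2 numbered 30314 and 52967 peaks, rising to 33852 and 56543 at 5 min, then 41668 and 72879 at 60 min. The RNase H lists numbered 473 and 15790, 3439 and 50353, and 5392 and 67188 peaks. Over all protein-coding genes the DRIP covered share averaged 6.49% and 11.6% in NT, 3.48% and 8.58% at 5 min, and 7.34% and 15.6% at 60 min. The read depth of a library is not in its list. The study reports read numbers for its libraries, but they were not used here. Read depth limits which peaks were called, and every value below carries that limit.

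**Figure D1:**
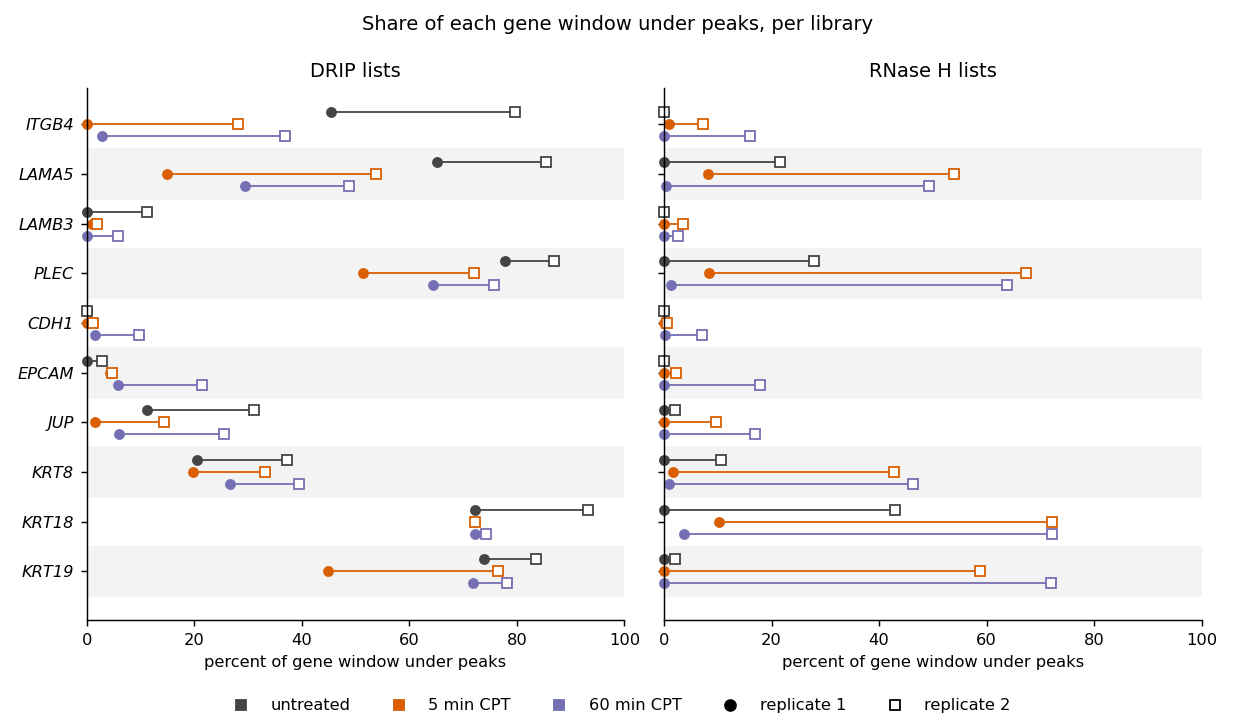
Covered share (percent of the bases of the gene and 5 kb on each side under a peak) of the 10 genes in every library, with filled circles for replicate 1 and open squares for replicate 2, DRIP lists on the left and RNase H lists on the right. ITGB4, LAMA5 and PLEC fall below both untreated values in all 4 CPT libraries, KRT18 stays at 72.1% or above in all 6 DRIP lists, and CDH1 and EPCAM are highest in replicate 2 at 60 min.

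The genes split by how much of them was covered before treatment. In the NT lists LAMA5, PLEC, KRT18, KRT19 and ITGB4 were covered over 45.5% to 93.2% of their intervals in each replicate, which placed their mean covered shares between the 96.4th and the 99.0th percentile of all genes. KRT8 and JUP lay between 11.2% and 37.2%. LAMB3 and EPCAM had peaks in replicate 2 only, and CDH1 had none. A peak in all 6 DRIP lists was present in 6 of the 10 genes, LAMA5, PLEC, KRT8, KRT18, KRT19 and JUP, against 39.9% of 16670 genes with any DRIP peak.

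After 5 min of CPT the covered share was lower than in NT in 3 of 10 genes, ITGB4, LAMA5 and PLEC, against 18.8% of 15884 genes tested. The count includes ITGB4, which was taken for this loss. It was higher in 1 gene, EPCAM, against 17.7%. After 60 min the same 3 genes were lower, against 8.29% of 16092 genes, and 2 were higher, CDH1 and EPCAM, against 30.5%. From 5 to 60 min no gene was lower, against 3.92% of 15900, and CDH1 and EPCAM were higher, against 25.3%. Both CPT times were set against the same NT libraries. The median difference from NT over the 10 genes was −11.8 percentage points at 5 min and −4.55 at 60 min, beside −0.0172 and 1.27 over all genes tested. These medians include ITGB4 and are not matched for NT cover, which had a median of 0.754% over all protein-coding genes. They therefore cannot be read as a loss particular to these genes, and genes of like NT cover are set side by side further below.

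ITGB4 lies on chromosome 17 (plus strand, 73717408 to 73753899), its canonical transcript has 40 exons, and the downstream flank reaches into GALK1. Peaks covered 45.5% and 79.6% of it in NT, 0% and 28.1% at 5 min, and 2.90% and 36.8% at 60 min. Neither CPT group reached the lower NT value, and the difference from NT was −48.5 points at 5 min (−45.5 and −51.4 within replicates 1 and 2) and −42.7 at 60 min (−42.6 and −42.7). The number of peaks did not follow the covered share. It was 14 and 9 in NT, 0 and 9 at 5 min, and 3 and 9 at 60 min. In replicate 2 the count stayed at 9 while some NT peaks were lost and wide ones gave way to several narrower peaks. The widest peak of replicate 2 was 10783 bp in NT, 3396 bp at 5 min and 6285 bp at 60 min.

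The loss in ITGB4 was uneven along the gene. Over the 12164 bp at its 3′ end, the last of 3 equal sections, the covered share was 49.4% and 84.0% in NT and 0% in all 4 CPT lists. Over the 5′ section of the same length it was 57.4% and 91.5% in NT, 0% and 50.7% at 5 min, and 5.26% and 74.1% at 60 min. After CPT the 5′ part was thus still covered in replicate 2, and the 3′ part in neither replicate. Of the 20968 bp under a peak of both NT replicates, 8504 bp (40.6%) lay under no CPT peak and 0 bp under a peak of all 6 lists, against 17.3% and 21.4% of such bases genome-wide. Of the bases covered in either replicate, both covered 56.4% in NT, 0% at 5 min and 7.88% at 60 min, against 32.9%, 20.6% and 29.9% genome-wide. Because ITGB4 was taken for its loss after CPT, these genome-wide shares are given for scale only and test nothing.

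The longest stretch of ITGB4 lost in this way was 4514 bp, chr17:73749494-73754007, from 32086 to 36600 bp downstream of the gene start. In NT replicate 1 it was a single peak at the 96.9th percentile of its list, from a Bsr GI to an Xba I site. In NT replicate 2 it was part of a peak of 10386 bp at the 97.5th percentile, from an Eco RI to an Ssp I site. The summits of these peaks, the tallest of the gene in each NT list, were 1 bp apart in intron 34. The sequence around the summit of replicate 1 is shown as the tallest point of the lost stretch (hg19, plus strand, chr17:73751007-73751107, all in lower case because the non-template strand printed holds no run of GGG).
ITGB4 summit: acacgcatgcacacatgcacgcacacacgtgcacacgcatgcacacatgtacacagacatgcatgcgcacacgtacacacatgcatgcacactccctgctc
It is a run of alternating CA and TG steps with 39 C and 17 G, and the summit itself lay in its Bsr GI site, TGTACA. For scale, 76.6% of the windows of 101 bases at the summits of the NT list of replicate 2, each strand counted, held at least 1 run of GGG, and 56.7% of windows spread over the genome did.

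No RNase H peak met ITGB4 in NT. Its RNase H covered share was 0% in both NT lists, 1.00% and 7.30% at 5 min, and 0% and 15.9% at 60 min. Of the bases under a DRIP peak of replicate 2, 0% lay under an RNase H peak in NT, 23.7% at 5 min and 41.4% at 60 min, against 6.72%, 33.4% and 51.0% genome-wide. The peaks that persisted in replicate 2 therefore lay in lists in which the RNase H share was higher genome-wide, and the part of this in the ITGB4 values was not tested.

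The ITGB4 peaks that stood after CPT shared edges with other lists. The left edge of the first ITGB4 peak, at −2215 bp from the gene start, was at the same base in both NT lists, in replicate 2 at both CPT times and in 2 RNase H lists. A right edge in intron 18 was at the same base in 3 DRIP and 2 RNase H lists, all of them after CPT, while the NT peaks there ran on past it. The 60 bases around each are shown, from hg19 on the plus strand (chr17:73715163-73715222 and chr17:73734195-73734254), with the recognition site of the restriction enzyme in capitals, AATATT for Ssp I and AAGCTT for Hind III.
ITGB4 left edge: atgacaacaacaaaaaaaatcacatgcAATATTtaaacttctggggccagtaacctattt
ITGB4 right edge: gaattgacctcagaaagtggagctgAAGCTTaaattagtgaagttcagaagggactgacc
The fragment from the first of these sites to the next one, 5853 bp across the gene start, was covered over 70.5% and 99.9% in NT, 0% and 93.9% at 5 min, and 17.4% and 99.9% at 60 min. The fragment of 5697 bp that ends at the Hind III site was covered over 100% in both NT lists, 0% and 80.4% at 5 min, and 5.8% and 94.6% at 60 min. The fragment of 2955 bp that makes up most of the lost stretch was covered over 100% in both NT lists and 0% in all 4 CPT lists. Of 34 fragments in the ITGB4 interval, 8 were covered over at least 50% in both NT lists, 5 of these had no covered base at 5 min, and 3 had none in any CPT list.

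LAMA5 lies on chromosome 20 (minus strand, 60883011 to 60942368, 80 exons), and its downstream flank holds part of ADRM1. Peaks covered 65.2% and 85.4% of its interval in NT, 14.9% and 53.8% at 5 min, and 29.4% and 48.9% at 60 min. All 4 CPT libraries were below both NT libraries. The difference was −41.0 points at 5 min (−50.3 and −31.7 within replicates) and −36.2 at 60 min (−35.8 and −36.6), with p = 0.333 for each in the exact permutation test.

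Unlike ITGB4, LAMA5 kept a core. A stretch of 4150 bp, chr20:60925097-60929246, from 13122 to 17272 bp downstream of its start, lay under a peak of all 6 DRIP lists. Its middle section of 19786 bp kept least of its NT cover at 60 min. There the covered share was 26.0% and 65.8% in NT, 4.13% and 20.1% at 5 min, and 1.78% and 2.59% at 60 min. In the 3′ section of the same length it was 87.3% and 91.7% in NT, 14.6% and 61.5% at 5 min, and 28.0% and 46.9% at 60 min. Of the 43469 bp covered in both NT lists, 6653 bp (15.3%) were in no CPT peak and 8382 bp (19.3%) were in all 6 lists.

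The tallest LAMA5 peak was at the 99.2nd and 99.4th percentile in NT, the 96.5th and 99.4th at 5 min, and the 92.1st and 97.8th at 60 min. In NT replicate 2 its summit lay in intron 1, and the sequence is shown on the non-template strand, beside that of the ITGB4 summit (hg19, minus strand, chr20:60939193-60939293, runs of 3 or more G in capitals).
LAMA5 summit: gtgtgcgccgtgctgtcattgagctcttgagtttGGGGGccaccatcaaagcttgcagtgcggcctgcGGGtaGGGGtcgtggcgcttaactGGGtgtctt
It holds 4 runs, and 11.9% of the strand windows at the summits of that list held 4 or more. The summit lay in its Hind III site AAGCTT, which was an edge of the LAMA5 peak of 10521 bp in replicate 2 at both CPT times. The RNase H covered share of LAMA5 was 0% and 21.6% in NT, 8.20% and 53.9% at 5 min, and 0.395% and 49.3% at 60 min. In replicate 2 the RNase H list thus covered as much of LAMA5 as the DRIP list at both CPT times, and its part in the DRIP values was not tested. Removing DRIP peaks that met an RNase H peak ended the 60 min call of LAMA5 and both calls of PLEC.

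PLEC, on chromosome 8 (144989321 to 145050902, minus strand), was the most covered of the 4 hemidesmosome and laminin genes. Its covered share was 77.7% and 86.9% in NT, 51.4% and 72.0% at 5 min, and 64.4% and 75.8% at 60 min. The 4 CPT libraries lay below both NT libraries, by −20.6 points at 5 min (−26.4 and −14.8 within replicates) and −12.2 at 60 min, with p = 0.333 in the exact permutation test at each time. A single peak of 43946 bp in NT replicate 1 and of 45391 bp in NT replicate 2 ran over the 3′ part of the annotated gene and spanned the canonical transcript, which begins 37137 bp inside it. The longest stretch of this peak that lay under a peak of all 6 lists was 20523 bp, and shorter such stretches, the next of 5566 bp, lay beside it.

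By height the PLEC peak ranked 23 and 29 in its NT lists. The tallest PLEC peak ranked 80 and 178 at 5 min and 52 and 576 at 60 min. Of the 54330 bp covered in both NT lists, 2831 bp (5.21%) were in no CPT list and 30779 bp (56.7%) in all 6, against 17.3% and 21.4% genome-wide. The RNase H covered share was 0% and 27.9% in NT, 8.42% and 67.3% at 5 min, and 1.29% and 63.7% at 60 min.

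LAMB3 (chromosome 1, minus strand, 209788215 to 209825770) had few and low peaks. They covered 0% and 11.3% of the interval in NT, 0.990% and 1.95% at 5 min, and 0% and 5.92% at 60 min. The groups overlapped at both times, and no LAMB3 DRIP peak stood above the 64.4th percentile of its list. The 7 peaks of NT replicate 2 were 284 to 1825 bp wide, and NT replicate 1 had none.

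**Figure D2:**
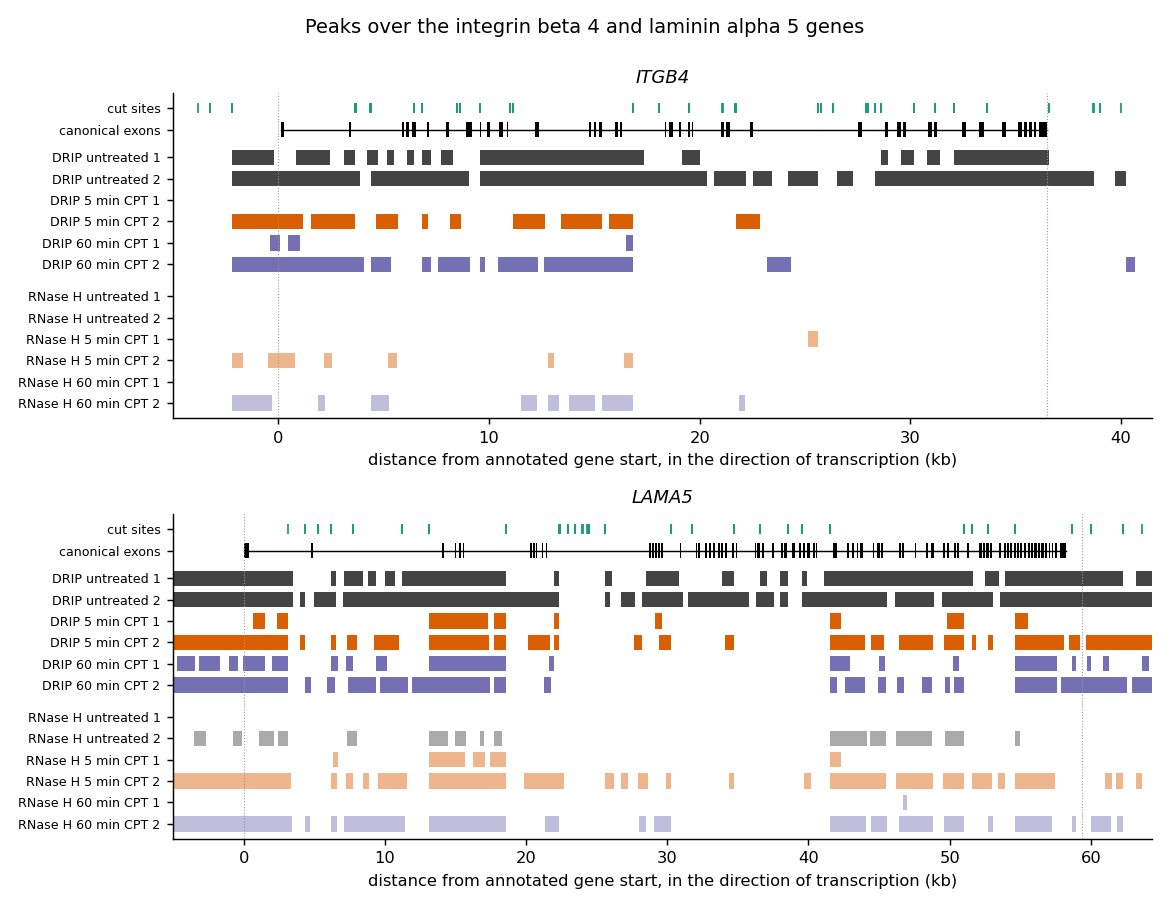
Peaks of the 12 lists over ITGB4 (top) and LAMA5 (bottom), with the distance from the annotated gene start in kb in the direction of transcription on the horizontal axis and 1 row per library, solid bars for DRIP and pale bars for RNase H. Black boxes are exons of the canonical transcript, green ticks are cut sites of the 5 enzymes and dotted lines mark the ends of the gene. The ITGB4 peaks between 32086 and 36600 bp appear in both NT rows and in no CPT row, while LAMA5 keeps a bar from 13122 to 17272 bp in all 6 DRIP rows.

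Of the junction genes, EPCAM was called higher than NT at both CPT times, CDH1 at 60 min, and JUP at neither. CDH1 lies on chromosome 16 (plus strand, 68771195 to 68869440). Its covered share was 0% in both NT lists, 0% and 1.25% at 5 min, and 1.52% and 9.73% at 60 min, with 0, 0, 0, 3, 4 and 12 peaks. Both 60 min libraries were above both NT libraries, by 1.52 points in replicate 1 and 9.73 in replicate 2, with p = 0.333 in the exact permutation test. The groups overlapped when peaks below a −log10 q of 3 were left out. CDH1 was the 1 gene of the 10 with a peak in neither NT list and in both 60 min lists, against 8.59% of genes tested, and no gene of the 10 had this pattern at 5 min, against 5.84%.

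All CDH1 DRIP summits were found upstream of the gene or in its introns. The longest stretch without NT cover and with a peak of both 60 min replicates was 518 bp, chr16:68770175-68770692, from −1020 to −502 bp of the gene start. The tallest CDH1 peak was at the 39.0th percentile in replicate 1 at 60 min and the 91.9th in replicate 2. The RNase H lists of CDH1 covered 0% in NT, 0% and 0.645% at 5 min, and 0.272% and 7.0% at 60 min. Of the bases under a DRIP peak of replicate 2 at 60 min, 52.8% lay under an RNase H peak, beside 51.0% genome-wide.

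EPCAM is annotated on chromosome 2 (plus strand) from 47572297 to 47614740, and its canonical transcript of 17710 bp begins 24153 bp inside that interval. Its covered share was 0% and 2.81% in NT, 4.42% and 4.72% at 5 min, and 5.84% and 21.5% at 60 min. Each treated library was above both NT libraries, by a mean of 3.16 points at 5 min (4.42 and 1.91 within replicates) and 12.3 at 60 min (5.84 and 18.7), with p = 0.333 in the exact permutation test at each time. Peaks numbered 0 and 2 in NT, 3 and 4 at 5 min, and 5 and 10 at 60 min.

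Some EPCAM peaks recurred just inside the canonical transcript and others lay further along it. Peaks of 5 min replicates 1 and 2 and of 60 min replicate 1 ended at the same base, 4152 bp downstream of the canonical start in intron 1, and in 60 min replicate 2 a peak of 5350 bp at the 95.1st percentile ran from −1059 to 4291 bp of that start. A stretch of 1167 bp, chr2:47599435-47600601, was covered in both 60 min lists and in no NT list, and 433 bp of it also in both 5 min lists. The shared edge is shown with the Xba I site TCTAGA in capitals (hg19, plus strand, chr2:47600572-47600631).
EPCAM right edge: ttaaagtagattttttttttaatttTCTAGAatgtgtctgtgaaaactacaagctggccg
The RNase H lists covered 0% of EPCAM in both NT libraries, 0% and 2.30% at 5 min, and 0% and 17.9% at 60 min. In replicate 2 at 60 min, 67.9% of the bases under a DRIP peak lay under an RNase H peak. Removing DRIP peaks that met an RNase H peak ended the 60 min call of EPCAM and left that of CDH1.

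**Figure D3:**
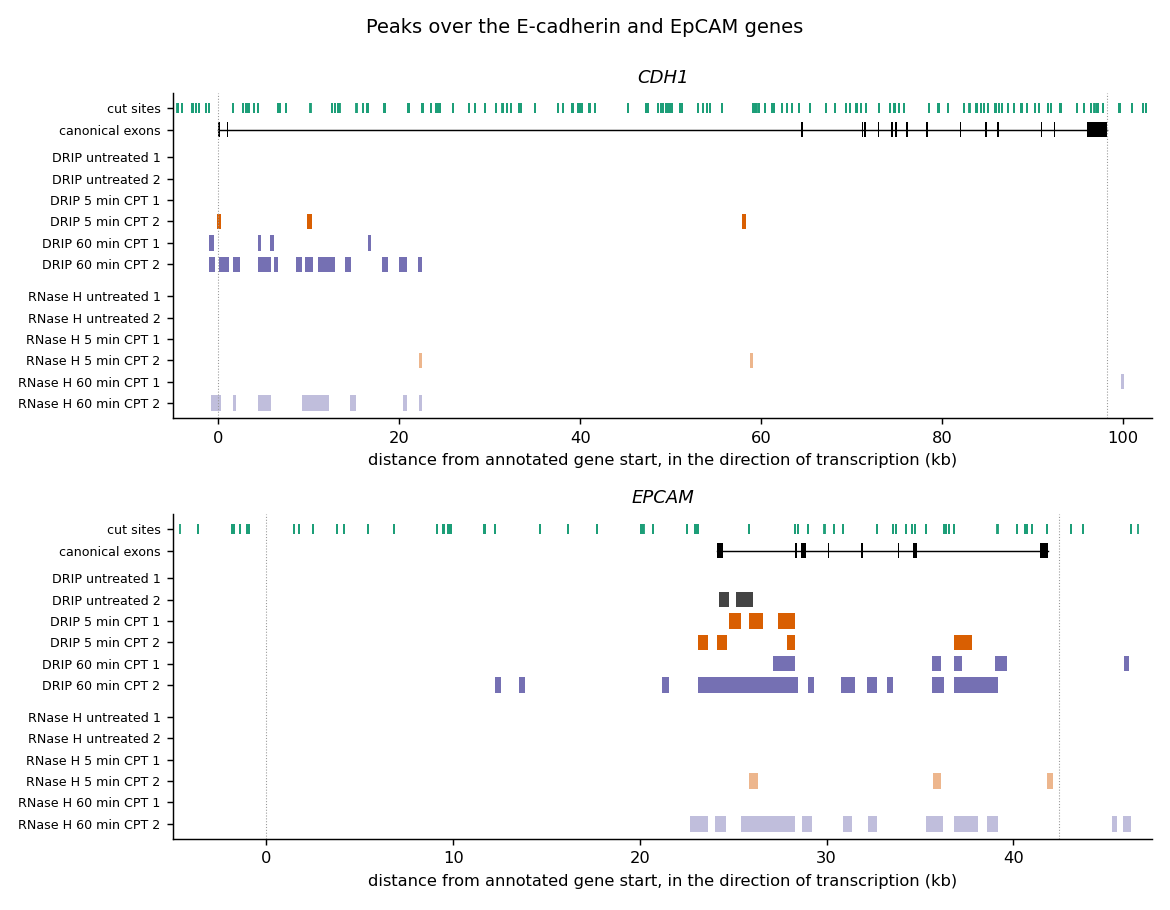
Peaks of the 12 lists over CDH1 (top) and EPCAM (bottom), drawn as distance from the annotated gene start in kb in the direction of transcription, with solid bars for DRIP, pale bars for RNase H, black boxes for exons of the canonical transcript and green ticks for cut sites. CDH1 bars are absent from both NT rows, and EPCAM has bars in both 60 min rows and no NT row from 27138 to 28305 bp, inside intron 1 of the canonical transcript, beside others further along the gene.

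JUP lies on chromosome 17 (minus strand, 39910856 to 39943183). DRIP peaks covered 11.2% and 31.2% of its interval in NT, 1.65% and 14.4% at 5 min, and 6.02% and 25.6% at 60 min. Within each replicate CPT was below NT, by a mean of −13.2 points at 5 min and −5.40 at 60 min, but the groups overlapped because replicate 1 was low throughout. The widest NT peaks lay at and beyond the 3′ end of the gene, and NT replicate 2 also had narrower peaks along it. In the 5000 bp downstream of JUP the covered share was 82.8% and 100% in NT, 1.78% and 47.7% at 5 min, and 33.0% and 27.1% at 60 min. Peaks at 60 min in replicate 2 were many and low, 18 peaks with the tallest at the 78.0th percentile, while the 11 NT peaks of replicate 2 reached the 97.1st.

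In each of the 3 keratin genes both CPT groups overlapped NT, although within each replicate KRT8 and KRT19 were below NT at 5 min, and at 60 min KRT19 was below and KRT8 above. KRT18 (chromosome 12, plus strand, 53342655 to 53346690) and KRT8 (minus strand, 53290971 to 53343738) are head to head and their intervals share a peak. KRT18 had exactly 1 peak in each of the 6 DRIP lists, and its covered share was 72.1% and 93.2% in NT, 72.1% in both 5 min lists, and 72.1% and 74.3% at 60 min. The repeated value comes from a peak with the same edges, 10126 bp at chr12:53340364-53350489, in NT replicate 1, both 5 min lists and 60 min replicate 1. In NT replicate 2 the peak was 13438 bp wide and in 60 min replicate 2 it was 10429 bp. KRT18 from end to end lay under a peak of all 6 lists.

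Both edges of this peak lay at Hind III sites with no cut site of the 5 enzymes between them, so it filled a single restriction fragment of 10128 bp. The edges are shown with AAGCTT in capitals (hg19, plus strand, chr12:53340334-53340393 and chr12:53350460-53350519). The left edge was at the same base in 5 DRIP and 2 RNase H lists and the right edge in 4 and 3.
KRT18 left edge: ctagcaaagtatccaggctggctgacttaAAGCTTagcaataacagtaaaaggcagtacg
KRT18 right edge: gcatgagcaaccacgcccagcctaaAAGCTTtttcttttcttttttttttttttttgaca

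The height of the KRT18 fragment was among the greatest of the lists. It ranked 725 and 15 in NT, 144 and 5 at 5 min, and 31 and 14 at 60 min. In replicate 1 the peak stood nearer the top of its list after CPT, and in replicate 2 the peak was in the top 15 in every treatment. Peaks on the same fragment also stood in the RNase H lists, where the tallest peak of the interval ranked 617 in NT replicate 2, 218 and 8 at 5 min, and 1238 and 1 at 60 min, the last among 67188 peaks. RNase H covered 0% and 43.0% of the KRT18 interval in NT, 10.3% and 72.1% at 5 min, and 3.80% and 72.1% at 60 min. In replicate 2, RNase H peaks took in 46.1% of the DRIP-covered bases of KRT18 before treatment, 100% at 5 min and 97.1% at 60 min. How much of this signal is not a hybrid was not tested.

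KRT8 outside the shared fragment was covered mostly at its 3′ end, where the canonical transcript of 7886 bp lies. Over its whole interval, shared fragment included, the covered share was 20.5% and 37.2% in NT, 19.9% and 33.1% at 5 min, and 26.7% and 39.5% at 60 min. The 3 groups overlapped. Of 12839 bp covered in both NT lists, 9839 bp (76.6%) were in all 6 lists and 0 bp in no CPT list. Most of these 9839 bp, 8375 bp, lay on the fragment shared with KRT18. The rest were stretches of 803 and 661 bp near the 3′ end of KRT8. A stretch of 532 bp, chr12:53299199-53299730, was covered at 5 min in both replicates and in no NT list.

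KRT19 (chromosome 17, minus strand, 39679869 to 39684560) had a covered share of 74.0% and 83.5% in NT, 44.9% and 76.5% at 5 min, and 71.9% and 78.1% at 60 min. The 5 min value of replicate 1 stood below the rest, where the peak broke into 6 pieces, and the others lay within 71.9% to 83.5%. Its tallest peak ranked 949 and 64 in NT, 232 and 127 at 5 min, and 769 and 307 at 60 min. A peak of 11205 bp with the same edges, a Bsr GI and an Ssp I site, stood in NT replicate 1, 5 min replicate 2 and 60 min replicate 2, and unlike the KRT18 fragment it held 2 cut sites inside. The edges are shown with the sites TGTACA and AATATT in capitals, and the NT summit in intron 1 with its runs of 3 or more G in capitals (hg19, chr17:39674501-39674560 and chr17:39685706-39685765 on the plus strand, chr17:39683323-39683423 on the minus strand).
KRT19 left edge: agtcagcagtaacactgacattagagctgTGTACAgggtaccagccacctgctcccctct
KRT19 right edge: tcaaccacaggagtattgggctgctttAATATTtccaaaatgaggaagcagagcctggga
KRT19 summit: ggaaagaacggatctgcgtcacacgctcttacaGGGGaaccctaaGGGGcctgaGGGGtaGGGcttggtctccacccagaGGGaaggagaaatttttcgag
The summit has 5 runs of G. RNase H covered 0% and 2.12% of KRT19 in NT, 0% and 58.8% at 5 min, and 0% and 72.0% at 60 min.

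**Figure D4:**
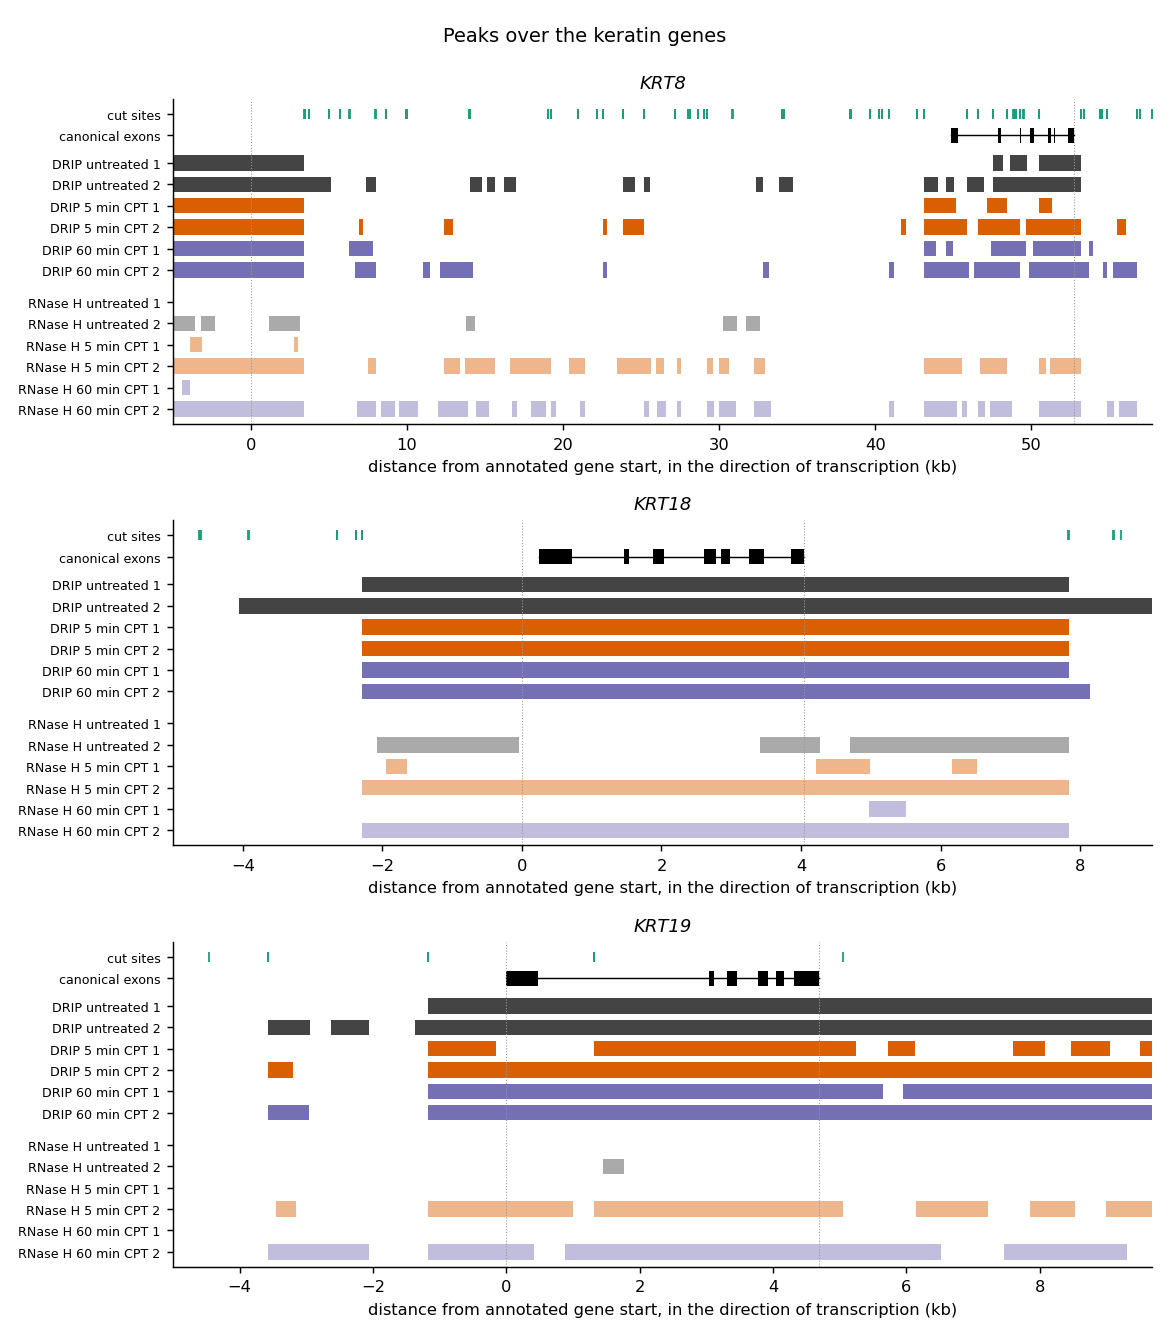
Peaks of the 12 lists over the keratin genes, drawn as distance from the annotated gene start in kb in the direction of transcription, with solid bars for DRIP, pale bars for RNase H, black boxes for exons of the canonical transcript and green ticks for cut sites. The stretch from −2291 to 7835 bp of KRT18 is covered in all 6 DRIP rows and in the RNase H rows of replicate 2 at both CPT times.

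Edges tied the peaks of all 10 genes to the restriction map. Over these genes 58 edges stood at the same base in more than 1 DRIP list, and all 58 lay at a recognition site of Hind III, Eco RI (GAATTC), Xba I, Ssp I or Bsr GI. These sites are palindromes, so both strands are the same. Of all 748 edges of DRIP peaks in the intervals 31.1% lay at a site, against 26.1% to 33.7% over the 6 whole lists and 1.36% of genome positions. Summits did the same. Of the 374 DRIP summits of these peaks, 149 (39.8%) lay within a site, against 26.5% of all 288223 and 1.17% of genome bases, and 22.2% of the 225 RNase H summits did. The end of a peak and its summit thus often coincided with a cut site. Counted by gene, with the peak shared by KRT8 and KRT18 under both, 189 of 380 DRIP summits (49.7%) were in introns of the canonical transcript and 33 (8.68%) in its coding exons. In ITGB4 these were 32 (72.7%) and 6 of 44.

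All 10 genes had more G and C and fewer cut sites than the medians of all genes, 44.7% GC and 15.1 sites per 10 kb. Of the genes with most NT cover, PLEC had 62.9% GC and 3.21 sites per 10 kb, LAMA5 62.3% and 4.61, ITGB4 57.1% and 7.53, KRT19 54.5% and 3.40, and KRT18, the most covered on average, 51.7% and 7.12. JUP, with a mean NT cover of 21.2%, had 54.0% and 5.67 sites, and KRT8, with 28.8%, had 50.4% and 9.56. Of the genes with little or no NT cover, LAMB3 had 50.2% and 11.6 sites, CDH1 47.1% and 14.3, and EPCAM 45.0% and 13.3. The order of cut sites did not follow NT cover throughout, since JUP had fewer sites than ITGB4 and KRT18. These features were read as a description over 10 genes.

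The fall of a gene was next set beside its NT cover, since only a covered gene can lose cover. Of 1099 genes with more than 40% covered in each NT list, 66.6% were lower at 5 min and 25% at 60 min, and among the 5 such genes here 3 were, ITGB4, LAMA5 and PLEC, while KRT18 and KRT19 were not, a count that includes the gene taken for its loss. In steps of 10 points of mean NT cover, 34.4% of the 253 other genes in the step of LAMA5 had a larger fall than LAMA5 at 5 min and 8.30% at 60 min. For PLEC the shares were 82.2% and 48.9% of 135 genes. Of the other genes in the step of KRT18, 95.6% had a larger fall at 5 min and 63.0% at 60 min, and for KRT19 the shares were 83.8% and 66.8%.

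**Figure D5:**
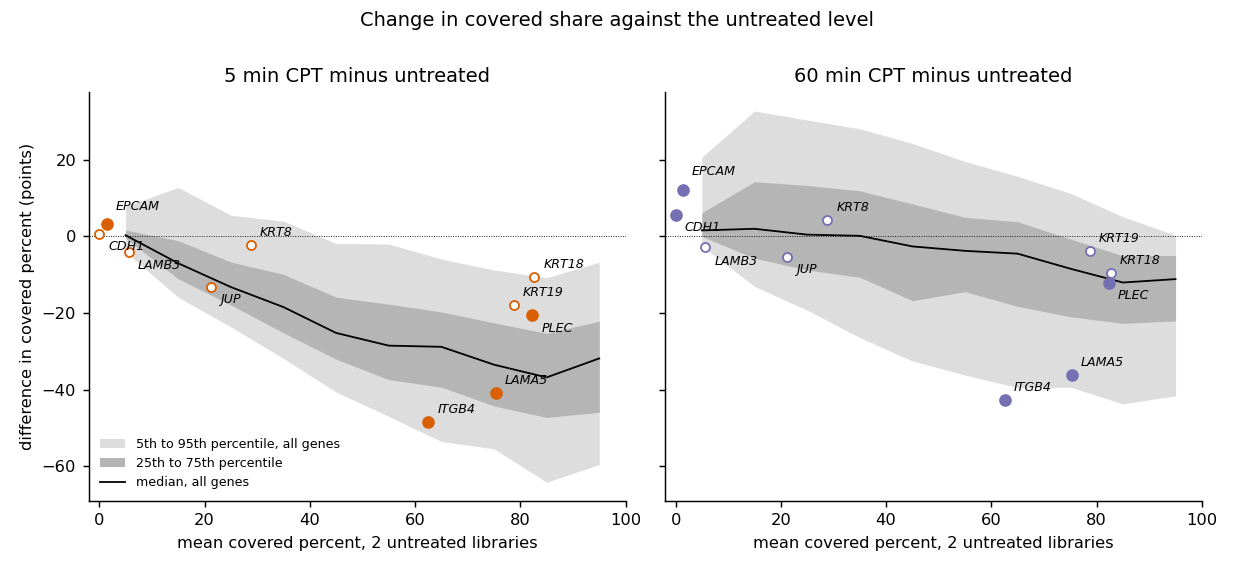
Difference in covered share, CPT minus NT, in percentage points, against the mean NT covered share in percent, at 5 min (left) and 60 min (right). Bands give the 5th to 95th and 25th to 75th percentiles of all genes tested and the line their median in steps of 10 points, and points are the 10 genes, filled where the groups of 2 libraries do not overlap. LAMA5 lies below the middle of its step at 60 min (−36.2 against a median of −8.31) and KRT18 above the middle of its step at both times, and ITGB4 was taken for its fall.

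DRIP and RNase H lists were compared within each treatment. In NT the DRIP covered share was above the RNase H share without overlap in 7 of 9 genes with a peak, all but LAMB3 and EPCAM, against 59.0% of 14036 genes. At 5 min this held for 1 of 10, EPCAM, against 25.3% of 15346, and at 60 min for 1 of 10, PLEC, against 13.4% of 15631. The fall in these counts went with longer RNase H lists of replicate 2 after CPT, which covered a median of 2.13% of the 10 genes in NT, 26.2% at 5 min and 32.1% at 60 min. The RNase H list of replicate 1 covered a median of 0%, 0.501% and 0.136%.

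Lists of other genes, chosen with earlier results of these data known, took in partners of these structures, tight junction genes, epithelial proteases and regulators, and mesenchymal genes for contrast. Of 79 listed genes 78 were found. At 5 min 12 of 71 tested were lower (16.9%) and 10 higher (14.1%), beside 18.8% and 17.7% of all genes, and at 60 min 7 of 65 were lower (10.8%) and 19 higher (29.2%), beside 8.29% and 30.5%. EVPL, which encodes envoplakin, a plakin of desmosomes, was covered over 71.6% and 88.6% in NT, 2.54% and 31.4% at 5 min, and 22.3% and 53.2% at 60 min. LAMB2, a laminin β chain, had a covered share of 36.2% and 51.3% in NT, 2.49% and 4.90% at 5 min, and 6.67% and 17.8% at 60 min. Their lists held both directions. Of 10 desmosome genes 2 were lower and 1 higher at 5 min, and 1 lower and 4 higher at 60 min. Of the other laminin chains 2 of 6 were lower and 3 higher at 5 min, and 2 of 5 lower and 2 higher at 60 min. Hemidesmosome partners gave 2 of 8 lower and 2 higher, then 2 of 7 lower and 3 higher. Mesenchymal genes gave 1 of 9 lower and 0 higher, then 0 of 7 in either direction. Adherens junction partners gave 1 of 10 lower and 2 higher, then 0 of 10 lower and 3 higher. Epithelial proteases and regulators gave 3 of 10 lower and 0 higher, then 0 of 10 lower and 2 higher. Among the latter ELF3, an epithelial transcription factor, had the largest positive difference of all these lists at 60 min, with 5.39% and 35.4% in NT and 44.4% and 57.8% after CPT. Of the tight junction genes 5 of 10 tested were higher at 60 min and 0 lower, beside 30.5% and 8.29% of all genes. Of 7 further keratins tested at 5 min 1 was lower, KRT15, which lies partly in the KRT19 interval, and of 6 tested at 60 min 2 were lower, KRT80 and KRT15.

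The genes most like ITGB4 over the 6 DRIP lists, by the sum of absolute differences in covered share, were UNC13D (17.0 points), ZNF469 (22.5), CYP2W1 (25.3), NOXA1 (25.7) and FERMT3 (29.4). UNC13D, on the same chromosome at 73823306 to 73840866, had covered shares of 44.4% and 71.6% in NT, 2.38% and 31.6% at 5 min, and 1.51% and 36.2% at 60 min.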

How the data were processed

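DRIP-seq peak lists of HCT116 cells were read for 6 DRIP and 6 RNase H libraries, 2 biological replicates of each of 3 treatments, grouped by their labels. Per the study's methods, reads were trimmed (cutadapt) and mapped with BWA to hg19 plus the yeast spike-in genome sacCer3, SAMtools and Picard served to drop blacklisted regions and duplicates, and MACS2 was run for every library separately with its paired input as control. FastQC and deepTools are also named in the submitters' processing notes. Tool versions and the calling threshold are not given in the sources used here. For each peak the authors deposited a fold enrichment, the ratio of summit to input. The −log10 p-value and −log10 q-value deposited beside it describe the summit within 1 list. The score the authors deposited, a rescaled −log10 q, was not used. Spike-in scaling and read counts are not in the lists, and the read numbers that the study reports per library were not used. Heights were therefore compared as percentiles within 1 list, and no interval from counts was given.

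Intervals came from GENCODE release 44 on GRCh37 (gene body plus 5000 bp on each side). The genes, the related lists and the tests were chosen with earlier results of these data known. All 10 genes were named, plus the 5 genes nearest to ITGB4 by the sum of absolute differences over the 6 DRIP lists. Related genes named with values were picked after their values were seen. A gene entered a comparison with a peak in at least 1 of its 4 lists. Calls were groups that did not overlap, and single values were compared with two-sided exact permutation tests, whose p-values measure only the spread between these libraries. Restriction sites of the 5 enzymes and printed sequences were read from GRCh37, and the summit sequences of CDH1 and EPCAM are not reported here. An edge was at a site within its 6 bases or next to their ends. The covered share was checked against a count base by base, and the call rule on copies of the NT lists with the peaks of some genes removed. The answer of the second check was fixed in advance, so it does not measure how reliable a call between libraries is.

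Alternatives were the gene body alone, 10 kb on each side, a −log10 q of at least 3, DRIP lists of equal length, assignment by peak midpoint, removal of DRIP peaks meeting an RNase H peak, the number of peaks, percentiles by −log10 p, a replicate block, each replicate left out and, chosen after seeing the data, the canonical transcript as the interval. Python 3.11.15, NumPy 2.4.6, pandas 2.3.3, SciPy 1.17.1 and Matplotlib 3.10.9 were used.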

Additional observations from a re-analysis of the deposited data

Results flagged for a closer look

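KRT8 moved in opposite directions at the 2 CPT times in both replicates. Its covered share changed from NT by −0.596 and −4.04 percentage points at 5 min and by 6.26 and 2.32 points at 60 min, in replicates 1 and 2. The difference between the times was not tested, and the groups of libraries overlapped at both times.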

How the results depend on the processing

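The calls of lower cover rest on covered bases. Counting peaks in place of bases gave 0 genes at 5 min and 0 at 60 min, against 3 and 3, and by that measure LAMA5 was higher at 60 min. ITGB4, which was taken for this loss, was lower in 7 of 8 other settings at each time, and these settings measure that same loss again. PLEC was not lower at either time, and LAMA5 not at 60 min, once DRIP peaks meeting an RNase H peak were removed. Other settings added calls. JUP was lower in 3 of 8 settings at 5 min and in 2 at 60 min. KRT8 was lower at both times with the RNase H filter, and KRT19 at 5 min with 10 kb on each side. With a replicate block 6 genes were lower at 5 min, 5 were lower and 3 higher at 60 min, beside 31.7% of all genes below NT in both replicates at 5 min and 17.6% below and 46.6% above at 60 min, and DRIP exceeded RNase H in 4 genes at 5 min and 7 at 60 min. The labels do not say that a number marks a shared day or batch. Libraries with the same number still deviated together from their group means, with correlations of 0.535 to 0.656 over 16670 genes. The main calls did not use this pairing. With replicate 1 or 2 left out, any difference between 2 libraries was a call. This gave 8 and 6 genes lower and 2 and 2 higher at 5 min, and 7 and 5 lower at 60 min. For DRIP above RNase H it gave 6 and 8 genes at 5 min and 8 and 9 at 60 min. Of the counts by setting in this paragraph, only lower or higher cover with a replicate block has a share of all genes beside it. For the others that share was not computed, so they cannot be read as particular to these genes. Of the 2 genes higher at 60 min, 1 remained at a −log10 q of at least 3 (EPCAM) and 1 after the RNase H filter (CDH1). DRIP exceeded RNase H by number of peaks in 1 gene in NT, 0 at 5 min and 2 at 60 min, with lists of equal length in 0 and 0 at 5 and 60 min, and at 60 min in 2 genes with the gene body alone or midpoints and in 0 with 10 kb on each side or a −log10 q of at least 3. The median difference ranged from −17.0 to −5.08 points at 5 min and from −9.39 to 0 at 60 min. The RNase H filter moved KRT18 to −36.1 points at both times and KRT8 to −15.4 and −12.5, and the canonical transcript as interval moved KRT8 to 17.1 at 60 min. The other single values, 98 at 5 min and 97 at 60 min, were of 2 kinds. For genes not called at that time they moved by no more than the spread between replicates. For called genes only the direction of the difference in covered share was checked, and it did not reverse. Such values could move far. With the RNase H filter PLEC was covered over 77.7% and 18.4% in NT and 18.6% and 8.82% at 60 min. The cause of these changes was not tested, and read depth, which is not in the lists, limits every missing peak.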
